A study of Sus scrofa with 14 samples.

Results

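Of the 19588 porcine genes measured by RNAseq, 15 had a mean normalized count under 15 in both pESCLC-FLB2i and pESCLC-FL6i and of at least 40 in each of the other 5 groups. The 15 genes were chosen by these means, so the difference between the 2 inhibitor lines and the other groups is a description here and was not tested. Porcine embryonic stem cell like cells (pESCLC) were grown from blastocysts, and induced pluripotent stem cells (piPSC) were made by reprogramming, and each of the 7 groups had 2 samples, 14 in all. The pESCLC-primary samples were blastocyst outgrowths in F, a medium with FGF2. The pESCLC-F samples came from 2 lines kept in F and collected at passage 2. Both pESCLC-FL6i samples were 1 line, at passages 3 and 9, moved at day 8 into FL6i, which holds FGF2, LIF and inhibitors of MAPK14, MAPK8, MAP2K, GSK3, BMP and TGFB signaling. Both pESCLC-FLB2i samples were also 1 line, at passages 3 and 6, which had been moved to FL6i at day 8 and to FLB2i at day 18. FLB2i holds LIF, FGF2, BMP4 and inhibitors of GSK3 and TGFB signaling. Lv-piPSC-F was a line made with lentiviral vectors and grown in F, and the codes of its 2 samples differ. The second of them was at passage 46, and no passage is given for the first. Epi-piPSC-FLB2i (1 line, at passages 9 and 12) and Epi-piPSC-FL6i (2 lines, at passages 12 and 11) were made from fetal fibroblasts with episomal plasmids in the medium of their name. All lines were maintained on irradiated mouse embryonic fibroblasts. Samples of 1 line at different passages are not separate derivations, so for Epi-piPSC-FLB2i and both pESCLC inhibitor lines the spread between samples is that between passages, and the p-values below measure only the spread between these samples.

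The fewest reads on genes were 6193659, for the second pESCLC-FL6i sample, and the most were 58878377, for the second Lv-piPSC-F sample, and the other samples had between 15179200 and 21232806. A mean of 15 normalized counts is therefore 5.73 reads at the lowest depth, against 19.5 reads for the first pESCLC-FLB2i sample, and a low value is least precise in the former. Without the second pESCLC-FL6i sample the rule takes 24 genes, all 15 among them. A pluripotency list held 34 genes, of which 23 were measured, which for all lists here means found by symbol. POU5F1 and SOX2 were not found and are in none of its counts. For both inhibitor lines the paper reports lower POU5F1 but not lower SOX2 by RNAseq, and staining of POU5F1, NANOG and SOX2 that persisted. The 23 genes summed to 9090 and 9938 normalized counts in the pESCLC-FLB2i samples and 8151 and 12913 in those of pESCLC-FL6i. The sums were 11258 and 12256 in Epi-piPSC-FLB2i and 32881 to 83699 in the samples of the other 4 groups. The paper reports human KLF4 expression in Lv-piPSC and plasmid LIN28 in Epi-piPSC, and KLF4 and LIN28A are on the list. The part of such transgenes in the sums was not tested. Against pESCLC-primary, 7 of the 17 list genes tested fell in pESCLC-FLB2i and 1 rose, and 6 of 18 fell in pESCLC-FL6i. Over all genes tested 8.75% fell and 10.8% rose in pESCLC-FLB2i, and 5.84% fell in pESCLC-FL6i. NANOG, LIN28A, GDF3, TBX3 and the adhesion genes CDH1 and EPCAM fell in both, and LIN28B in pESCLC-FLB2i alone. CDH1 is also on the cytoskeleton and adhesion list below, so the 2 lists are not separate. ESRRB, KLF4, TET1, TET3 and DPPA2 were not called in either line. Without the first or the second pESCLC-primary sample limma called none of the list in either line. The 19 measured genes of a fibroblast and feeder list summed to between 64476 and 225678 normalized counts in the pESCLC-FLB2i samples and between 49109 and 435291 in those of pESCLC-FL6i, against 33708.5 to 467761 in the other 10 samples, with no gene of the list at 0 in both samples of any group. The part of such cells in the values was not tested. In RNA from whole cultures, fewer cells of a type and less RNA per cell cannot be told apart.

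In the blastocyst the outer layer, the trophectoderm, is an epithelium rich in keratins and sealed by tight junctions, whose claudins are tied to the cytoskeleton by scaffold proteins of the TJP family, and it surrounds the inner cell mass, a cluster of cells without such a seal. E-cadherin joins the cells of both. NODAL, a ligand of the TGFB family, acts in the epiblast that forms from the inner cell mass, through SMAD2 and SMAD3, which reach DNA with the forkhead factor FOXH1. OTX2 is a homeodomain factor of the primed epiblast and later of the anterior neural plate. By role, the 15 genes hold 3 nuclear factors (OTX2, FOXH1, VRTN), 3 genes of junctions and keratin filaments (CLDN9, TJP3, KRT80), 2 GTPase-activating proteins (ARHGAP8, ARHGAP27), 2 glycosyltransferases (LARGE2, GALNT5), 2 peptidases (ANPEP, PRSS16), the insulin receptor substrate IRS4, the multi-pass membrane protein TMEM184A and ENSSSCG00000036632, for which the name table gave no symbol. Symbols were found for 14 of the 15 and for 14151 of all 19588 genes.

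The limits of the rule were met in stages. A mean under 15 in both inhibitor lines was found for 5108 genes, of which 329 also had at least 40 in pESCLC-primary, 255 also in pESCLC-F, 115 also in Lv-piPSC-F, 42 also in Epi-piPSC-FL6i and 15 also in Epi-piPSC-FLB2i. The last step thus left out 27 genes, and 20 of these 27 were under 15 in Epi-piPSC-FLB2i as well. Among the 9932 genes with at least 40 in all 5 other groups, 34 were under 15 in pESCLC-FLB2i and 41 in pESCLC-FL6i, and the 15 were in both. Just inside the limit of 15 lay TJP3, with 14.8 in pESCLC-FLB2i, and IRS4, with 14.1, and just outside it LIN28A with 16.6 and TNNT1 with 16.9. Just inside the limit of 40 lay GALNT5, with 40.2 in Lv-piPSC-F, and TJP3, with 43.7 in Epi-piPSC-FL6i, and just outside it ENSSSCG00000013547 with 37.4 and ENSSSCG00000031750 with 37.2.

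In each of the 15 genes all 4 samples of the inhibitor lines lay below all 10 samples of the other groups, as the plot of each sample shows. The gap was narrowest for IRS4, where the lowest of the 10 samples was 1.59 times the highest of the 4, and for TJP3, at 1.76 times. Summed over the 15 genes, the pESCLC-FLB2i samples had 144 and 91 reads and the pESCLC-FL6i samples 68 and 35. Every gene had at least 1 read in the 4 samples together, from 1 read for OTX2 and 2 for VRTN to 51 for TJP3. When each sample had to be on its own side of the limits, in place of the group means, 8 genes were left, and ANPEP, CLDN9, GALNT5, IRS4, KRT80, OTX2 and TJP3 dropped out. With a single sample left out, the means of CLDN9 and IRS4 (first pESCLC-FLB2i), KRT80 and TJP3 (second pESCLC-FLB2i), ANPEP and KRT80 (first pESCLC-FL6i), GALNT5 (second Lv-piPSC-F) and OTX2 (first Epi-piPSC-FLB2i) no longer met the limits.

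**Figure D1:**
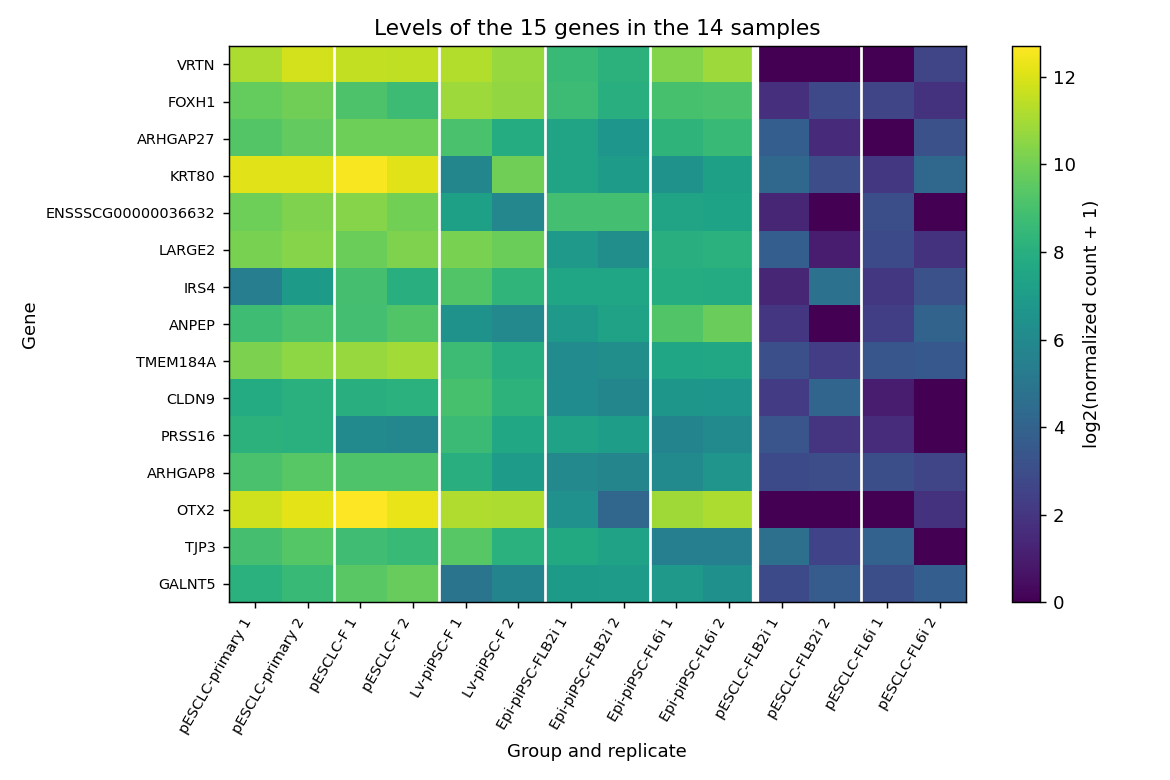
Heat map of log2(normalized count + 1), by color, for the 15 genes (rows) in the 14 samples (columns, 2 per group), with the 4 pESCLC-FLB2i and pESCLC-FL6i columns right of the thick white line. Those 4 columns are dark in every row, and among the other columns OTX2 is lowest in Epi-piPSC-FLB2i, at 85.9 and 17.5 normalized counts, and KRT80 is far apart in the 2 Lv-piPSC-F samples, at 56.1 and 999.

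**Figure D2:**
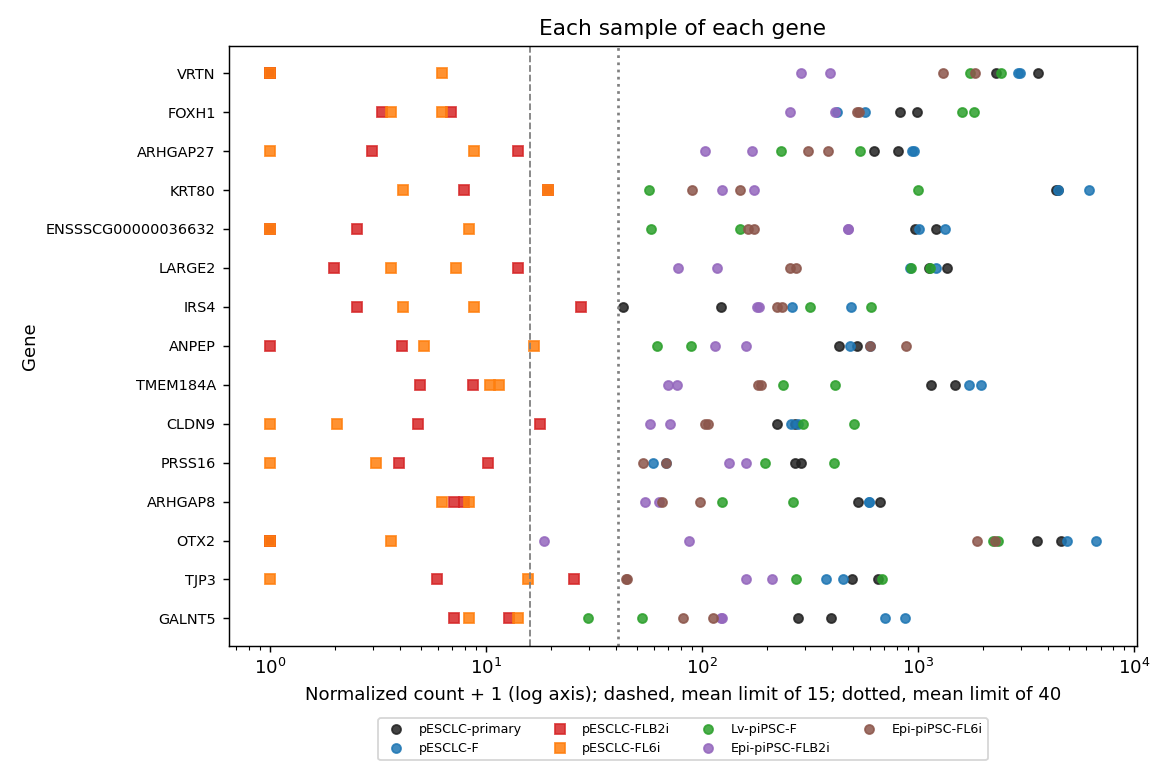
Normalized count + 1 on a log axis for each of the 14 samples of each of the 15 genes, with squares for the 4 inhibitor-line samples (pESCLC-FLB2i and pESCLC-FL6i), circles for the 10 other samples and color for the group. The dashed and dotted lines mark the limits on group means, 15 and 40, and the squares lie left of all circles in each of the 15 rows, closest in IRS4 and TJP3.

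OTX2 and VRTN were the genes with the fewest reads in the inhibitor lines. OTX2 (chr1:186028575-186039026, minus strand, Sscrofa11.1, positions here and below from RefSeq) had 3565 and 4568 normalized counts in pESCLC-primary, 6664 and 4904 in pESCLC-F, 2338 and 2220 in Lv-piPSC-F, 1867 and 2283 for Epi-piPSC-FL6i, and 85.9 and 17.5 for Epi-piPSC-FLB2i. Neither pESCLC-FLB2i sample had a read of it, and of the pESCLC-FL6i samples the first had none and the second a single read. With 3 reads per library taken as the limit that a count of 0 allows, which covers counting error only, OTX2 was at least 1545-fold lower in pESCLC-FLB2i than in pESCLC-primary and at least 19.6-fold lower than in Epi-piPSC-FLB2i. OTX2 was thus at 0 or 1 read in the 4 inhibitor-line samples and lower in Epi-piPSC-FLB2i than in Epi-piPSC-FL6i, whose samples were close to those of Lv-piPSC-F. VRTN (chr7:97614707-97624273, plus strand) encodes vertnin, a DNA-binding protein known in pigs for its part in the number of vertebrae. It had 2290.0 and 3601 normalized counts in pESCLC-primary, 2958 and 2913 in pESCLC-F, 2415 and 1735 in Lv-piPSC-F, 1301 and 1835 for Epi-piPSC-FL6i, and 389 and 288 for Epi-piPSC-FLB2i. Again neither pESCLC-FLB2i sample had a read, the first pESCLC-FL6i sample had none and the other had 2, so that VRTN was at least 1119-fold lower in pESCLC-FLB2i than in pESCLC-primary. The 250 bases before the annotated start of both genes (chr1:186039027-186039276, minus strand, and chr7:97614457-97614706, plus strand) are shown 5′ to 3′, since these 2 genes alone had no read in either pESCLC-FLB2i sample, and they overlap no annotated exon.
OTX2: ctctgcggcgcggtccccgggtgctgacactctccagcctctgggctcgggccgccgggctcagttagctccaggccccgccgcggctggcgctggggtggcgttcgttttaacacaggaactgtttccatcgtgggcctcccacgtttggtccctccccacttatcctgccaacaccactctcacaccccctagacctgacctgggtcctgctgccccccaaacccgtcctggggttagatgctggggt
VRTN: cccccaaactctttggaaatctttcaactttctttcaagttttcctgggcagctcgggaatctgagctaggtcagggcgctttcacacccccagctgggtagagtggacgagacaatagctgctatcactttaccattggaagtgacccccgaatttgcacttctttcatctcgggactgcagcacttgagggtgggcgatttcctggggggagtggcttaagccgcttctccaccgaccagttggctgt

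FOXH1 (chr4:320610-324570, plus strand), the nuclear partner of SMAD2 and SMAD3, had 821 and 989 normalized counts in pESCLC-primary, 569 and 422 in pESCLC-F, 1822 and 1595 in Lv-piPSC-F, 521 and 534 for Epi-piPSC-FL6i, and 411 and 254 for Epi-piPSC-FLB2i. The pESCLC-FLB2i samples had 2.31 and 5.91 and the pESCLC-FL6i samples 5.24 and 2.62, which is 15 reads in all 4. FOXH1 was thus highest in Lv-piPSC-F, and its lowest value outside the inhibitor lines was 254. KIFC2, on the other strand, ends 52 bases from the end of FOXH1, and it had means of 208 in pESCLC-FLB2i and 364 in pESCLC-FL6i. The counting is given with default parameters, and whether its strand setting suited the stranded kit is not stated. Whether reads of the 2 ends went to the right gene is therefore not known.

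Among the genes of junctions and filaments, CLDN9 (chr3:39172731-39181827, minus strand), a claudin, had 221 and 270.0 normalized counts in pESCLC-primary, 259 and 277 in pESCLC-F, 505 and 292 in Lv-piPSC-F, 106 and 102 for Epi-piPSC-FL6i, and 70.4 and 56.3 for Epi-piPSC-FLB2i. It had 1.05 and 0 for pESCLC-FL6i and 3.85 and 16.8 in pESCLC-FLB2i, so 1 of the 2 pESCLC-FLB2i samples was above 15. CLDN6, a paralog on the other strand that ends 99 bases from the end of CLDN9, had 7.34 and 7.86 for pESCLC-FL6i and 45.4 and 442 in pESCLC-FLB2i, and the reads of such neighbours of like sequence are uncertain. TJP3 (chr2:74938153-74971431, minus strand), the scaffold protein ZO-3, had 496 and 650.4 in pESCLC-primary, 450.1 and 375 in pESCLC-F, 678 and 271 in Lv-piPSC-F, 210.1 and 160 for Epi-piPSC-FLB2i, and 43.4 and 44.0 for Epi-piPSC-FL6i. In the inhibitor lines it had 24.6 and 4.93 in FLB2i and 14.7 and 0 in FL6i. TJP3 was thus lower in Epi-piPSC-FL6i than in Epi-piPSC-FLB2i, the reverse of OTX2. Its annotation overlaps that of APBA3 on the other strand, and without strand the reads of the 2 genes cannot be told apart there. KRT80 (chr5:17482454-17506462, minus strand), a type II keratin, had 4438 and 4357 in pESCLC-primary and 6193 and 4459 in pESCLC-F. It had 56.1 and 999 in Lv-piPSC-F, 173 and 123 for Epi-piPSC-FLB2i and 88.8 and 149 for Epi-piPSC-FL6i, against 3.15 and 18.3 for pESCLC-FL6i and 18.5 and 6.90 for pESCLC-FLB2i. KRT80 was therefore far higher in the 4 samples of pESCLC-primary and pESCLC-F than in any other, and the 2 Lv-piPSC-F samples disagreed on it. The same 4 samples had the highest sums of a trophectoderm list of 15 measured genes, at 345885 to 488456 normalized counts. A sum follows the abundant genes, and 5 of the 15 had means under 15 in pESCLC-F, against 1 in pESCLC-primary. The part of trophectoderm cells in the values of KRT80 was not tested. It was the only one of the 28 keratin genes measured that met the rule.

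The GTPase-activating proteins were both highest in pESCLC-primary and pESCLC-F. ARHGAP27 (chr12:18037007-18069989, plus strand) had 625 and 806 normalized counts in pESCLC-primary, 941 and 962 in pESCLC-F, 539 and 231 in Lv-piPSC-F, 308 and 383 for Epi-piPSC-FL6i, 170 and 102 for Epi-piPSC-FLB2i, 0 and 7.86 for pESCLC-FL6i and 13.1 and 1.97 for pESCLC-FLB2i. ARHGAP8 (chr5:4399874-4450505, minus strand) had 527 and 665 in pESCLC-primary, 595 and 594 in pESCLC-F, 262 and 123 in Lv-piPSC-F, 64.7 and 96.9 for Epi-piPSC-FL6i, 62.1 and 53.5 for Epi-piPSC-FLB2i, 7.34 and 5.24 for pESCLC-FL6i and 6.16 and 6.90 for pESCLC-FLB2i. The 4 samples of the inhibitor lines were close to each other for ARHGAP8 and spread from 0 to 13.1 for ARHGAP27.

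LARGE2 (chr2:16545436-16550922, minus strand) extends the laminin-binding glycan of dystroglycan. It had 1126 and 1366 normalized counts in pESCLC-primary, 918 and 1208 in pESCLC-F, 1132 and 928 in Lv-piPSC-F, 254 and 273 for Epi-piPSC-FL6i, 117 and 76.5 for Epi-piPSC-FLB2i, 6.29 and 2.62 for pESCLC-FL6i and 13.1 and 0.985 for pESCLC-FLB2i. Its levels in the 3 groups in media named F overlapped and lay above both Epi-piPSC groups. GALNT5 (chr15:64241672-64284618, plus strand), which starts mucin-type O-glycans, had 276 and 396 in pESCLC-primary, 702 and 874 in pESCLC-F, 28.6 and 51.9 in Lv-piPSC-F, 112 and 80.9 for Epi-piPSC-FL6i, 121 and 123 for Epi-piPSC-FLB2i, 7.34 and 13.1 for pESCLC-FL6i and 6.16 and 11.8 for pESCLC-FLB2i. The first Lv-piPSC-F sample was under 40, and without the second one GALNT5 would not meet the rule.

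Of the peptidases, ANPEP (chr7:55351081-55373856, minus strand), the membrane-bound aminopeptidase N, had 429 and 524 normalized counts in pESCLC-primary, 486 and 601 in pESCLC-F, 88.0 and 61.3 in Lv-piPSC-F, 600 and 884 for Epi-piPSC-FL6i, 114 and 160 for Epi-piPSC-FLB2i, 4.20 and 15.7 for pESCLC-FL6i and 3.08 and 0 for pESCLC-FLB2i. It was the only 1 of the 15 with its highest group mean in Epi-piPSC-FL6i. PRSS16 (chr7:21276997-21285314, plus strand), a serine protease known from the thymus, had 287 and 270.0 in pESCLC-primary, 67.0 and 58.7 in pESCLC-F, 407 and 194 in Lv-piPSC-F, 52.1 and 66.9 for Epi-piPSC-FL6i, 159 and 133 for Epi-piPSC-FLB2i, 9.23 and 2.96 for pESCLC-FLB2i and 2 reads and none in pESCLC-FL6i. PRSS16 was thus low in pESCLC-F, where most of the 15 were high.

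IRS4 (chrX:89204348-89221463, minus strand) passes on signals of the insulin and IGF1 receptors. It had 42.3 and 121 normalized counts in pESCLC-primary, 489 and 261 in pESCLC-F, 603 and 314 in Lv-piPSC-F, 235 and 223 for Epi-piPSC-FL6i, 183 and 179 for Epi-piPSC-FLB2i, 3.15 and 7.86 for pESCLC-FL6i and 1.54 and 26.6 for pESCLC-FLB2i. It was the only gene of the 15 with its lowest other mean in pESCLC-primary, and its later pESCLC-FLB2i sample was above 15. TMEM184A (chr3:1034662-1044259, minus strand) had 1154 and 1478 in pESCLC-primary, 1714 and 1947 in pESCLC-F, 413 and 237 in Lv-piPSC-F, 182 and 186 for Epi-piPSC-FL6i, 68.3 and 75.6 for Epi-piPSC-FLB2i, 9.44 and 10.5 for pESCLC-FL6i and 7.69 and 3.94 for pESCLC-FLB2i. ENSSSCG00000036632 had 966 and 1210.0 in pESCLC-primary, 1335 and 1015 in pESCLC-F, 150 and 57.1 in Lv-piPSC-F, 173 and 163 for Epi-piPSC-FL6i, 474 and 472 for Epi-piPSC-FLB2i, 7.34 and 0 for pESCLC-FL6i and 1.54 and 0 for pESCLC-FLB2i. Over the 15 genes, the lowest of the 5 other group means was that of Epi-piPSC-FLB2i in 8 and the highest was that of pESCLC-F in 6, of pESCLC-primary in 4 and of Lv-piPSC-F in 4.

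The rule required a mean of at least 40 in each of the 5 other groups, which limits how far a gene can fall in any of them. Beyond this minimum it did not use the differences among these groups. They were tested with limma on log2(normalized count + 1), with p-values adjusted by Benjamini-Hochberg over all genes tested. A gene was called where its fold change was at least 3 and its adjusted p at most 0.05, and fold changes on this scale understate those of low genes. All 15 genes passed the filter on low values in all 5 comparisons. On staying in F, from pESCLC-primary to pESCLC-F, 1 of the 15 fell and none rose, where 0.494% of the 13977 genes tested rose and 1.54% fell. The gene was PRSS16 (log2 fold change -2.13 ± 0.26 (SE), adjusted p = 0.0199 by limma), and without the first pESCLC-primary sample its adjusted p was 0.0882, and it was not called in 1 fit on all 14 samples either. GALNT5 had 1.24 ± 0.23 (SE) and IRS4 2.30 ± 0.55 (SE), with limma adjusted p of 0.0484 and 0.0819, and neither was called. The median log2 fold change was 0.13 over the 15 genes and 0.02 over all genes tested.

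Between the media of the Epi-piPSC, FL6i against FLB2i, 3 of the 15 genes rose and 1 fell, against 8.17% and 11.6% of the 14252 genes tested. The 3 were OTX2 (log2 fold change 5.69 ± 0.59 (SE), limma adjusted p = 0.000112), ANPEP (2.42 ± 0.24 (SE), adjusted p = 9.2e-05) and VRTN (2.20 ± 0.20 (SE), adjusted p = 5.8e-05). TJP3 fell, by 2.04 ± 0.27 on the log2 scale (limma adjusted p = 0.000399), and in 1 fit on all 14 samples its adjusted p was 0.197. The median was 0.71 over the 15 genes and -0.02 over all genes tested. FL6i holds inhibitors that FLB2i lacks and FLB2i holds BMP4, and the samples are of different lines, so medium and line cannot be told apart.

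Among the lines in media named F, Lv-piPSC-F against pESCLC-F, 2 of the 15 rose and 5 fell, against 10.5% and 12.2% of the 14239 genes tested. FOXH1 (log2 fold change 1.80 ± 0.22 (SE), limma adjusted p = 0.00728) and PRSS16 (2.15 ± 0.48 (SE), adjusted p = 0.0279) rose. GALNT5 (-4.31 ± 0.41 (SE), limma adjusted p = 0.00518), ENSSSCG00000036632 (-3.64 ± 0.52 (SE)), ANPEP (-2.86 ± 0.34 (SE)), TMEM184A (-2.54 ± 0.31 (SE)) and ARHGAP8 (-1.72 ± 0.42 (SE)) fell. KRT80, at -4.46 ± 1.39 (SE), was not called, with a limma adjusted p of 0.0630. Without the first or the second pESCLC-F sample limma called none of the 15, and 0 and 13 of all genes, while 7 of the 15 had an unadjusted p under 0.05 each time. DESeq2 and edgeR called 7 each with all samples. Without the second Lv-piPSC-F sample ARHGAP8 fell by 1.18 and was no longer past the fold limit. The median was -1.33 over the 15 genes and -0.02 over all genes tested. The 2 media named F differ and so does the origin of the lines, so medium and line cannot be told apart.

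Against pESCLC-primary, the Epi-piPSC had lower levels of most of the 15. In Epi-piPSC-FLB2i 10 fell and none rose, where 10.9% of the 14537 genes tested rose and 11.8% fell, and the median log2 fold change was -1.94 over the 15 and 0.00 over all genes. OTX2 (log2 fold change -6.65 ± 0.62 (SE)), KRT80 (-4.91 ± 0.18) and TMEM184A (-4.16 ± 0.21) fell furthest (limma adjusted p = 0.000173, 7.8e-06 and 1.7e-05). LARGE2 (-3.70), ARHGAP8 (-3.34), VRTN (-3.10), ARHGAP27 (-2.42), CLDN9 (-1.94), ANPEP (-1.81) and TJP3 (-1.63) were the others that fell. ANPEP was no longer past the fold limit without the first Epi-piPSC-FLB2i sample (-1.56), nor was TJP3 without the second one (-1.43) or without the second pESCLC-primary sample (-1.43). In 1 fit on all 14 samples ANPEP, TJP3 and ARHGAP27 were not called (adjusted p = 0.0742, 0.295 and 0.0826). FOXH1, at -1.48 ± 0.25 (SE), and IRS4, at 1.32 ± 0.48 (SE), were not called.

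In Epi-piPSC-FL6i, 8 of the 15 fell and 1 rose against pESCLC-primary, where 9.12% of the 14366 genes tested rose and 14.2% fell. KRT80 (log2 fold change -5.24 ± 0.24 (SE)), TJP3 (-3.67 ± 0.24) and ARHGAP8 (-2.89 ± 0.27) fell furthest (limma adjusted p = 3.9e-05, 0.000121 and 0.000362). TMEM184A (-2.82), ENSSSCG00000036632 (-2.68), LARGE2 (-2.23), PRSS16 (-2.22) and GALNT5 (-1.79) fell as well, and GALNT5 was under the fold limit without the second pESCLC-primary (-1.53) or the second Epi-piPSC-FL6i sample (-1.55). IRS4 rose by 1.66 ± 0.49 (SE, limma adjusted p = 0.0291), and this call was lost without the first pESCLC-primary sample (0.91), without either Epi-piPSC-FL6i sample (adjusted p = 0.0871 and 0.0774) and with DESeq2 (1.47) or edgeR (1.47). The nuclear factors OTX2 (-0.97 ± 0.15 (SE)), VRTN (-0.89 ± 0.25) and FOXH1 (-0.77 ± 0.14) were not called in this comparison. The median was -1.79 over the 15 and 0.01 over all genes. The pESCLC-primary samples enter 3 of the 5 comparisons, and pESCLC-F and each Epi-piPSC group 2, so the comparisons are not independent.

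**Figure D3:**
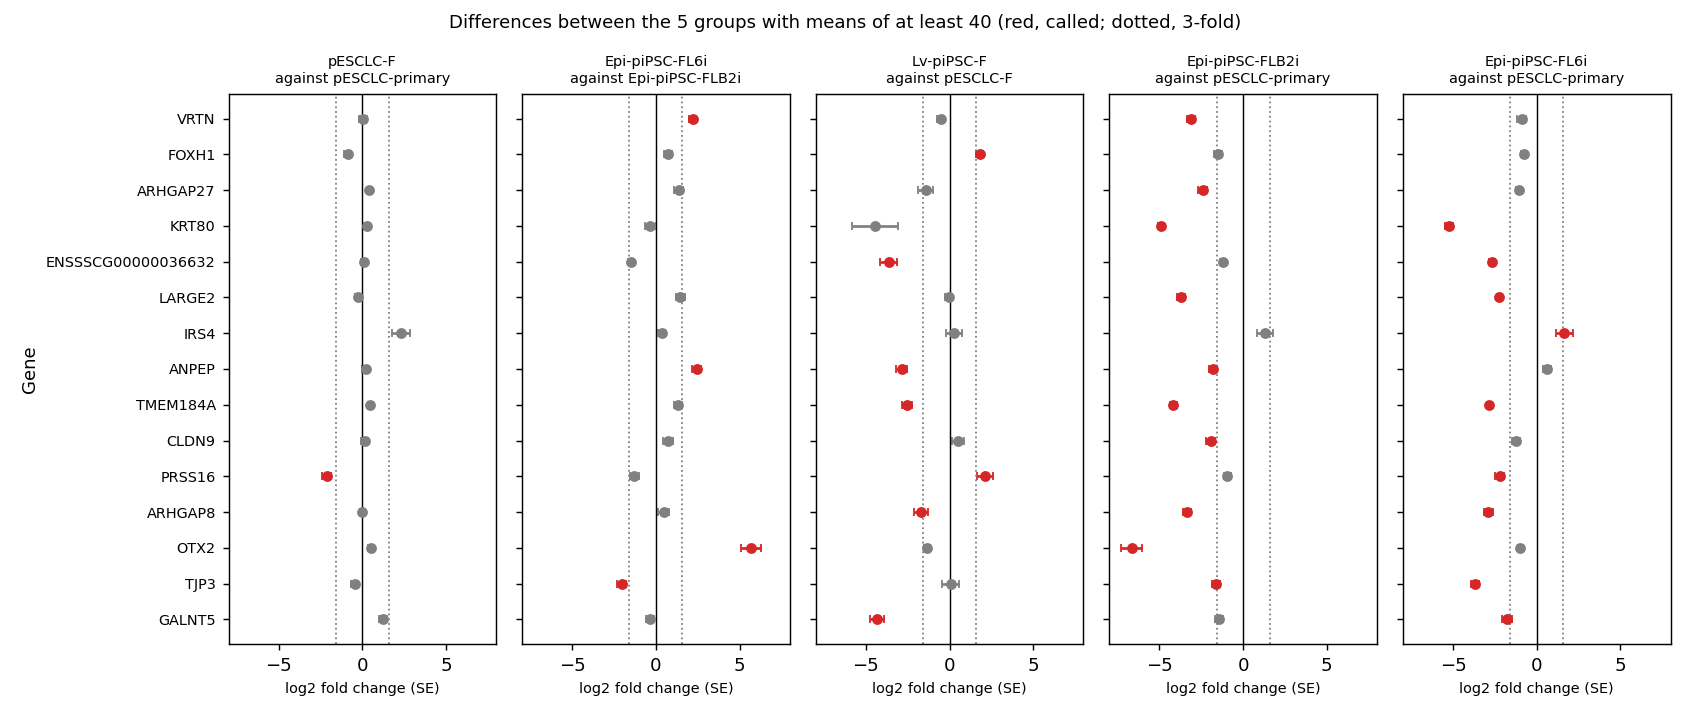
Log2 fold change with its SE (limma, 2 against 2 samples per comparison) of each of the 15 genes in 5 comparisons among the other 5 groups. The choice of the genes required a mean of at least 40 in each of these groups, which limits how far a gene can fall. Called genes are in red, others in grey, and dotted lines are at 3-fold. In the fourth panel, Epi-piPSC-FLB2i against pESCLC-primary, 10 genes are red and all 10 lie left of 0, down to -6.65 for OTX2.

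The genes stood apart on the chromosomes. The 14 genes with a symbol were placed on 9 chromosomes in the RefSeq annotation, 3 of them on chromosome 7, which holds 6.33% of the 13147 measured genes placed, and no 2 of them were neighbours. Of the 28 nearest measured genes on either side, 23 had a mean of at least 40 in all 7 groups. Only CYTIP, beside GALNT5, was under 15 in both inhibitor lines, and its means in the other 5 groups ran from 0 to 21.1. KRT7, the keratin next to KRT80, had means of 1979 in pESCLC-primary, 2560.0 in pESCLC-F, 283 in Lv-piPSC-F, 38.0 in Epi-piPSC-FLB2i, 60.1 in Epi-piPSC-FL6i, 41.4 in pESCLC-FLB2i and 1.31 in pESCLC-FL6i. CLDN6 and KRT7, each beside a member of its own family, were low in pESCLC-FL6i, at 7.60 and 1.31, but above 40 in pESCLC-FLB2i.

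**Figure D4:**
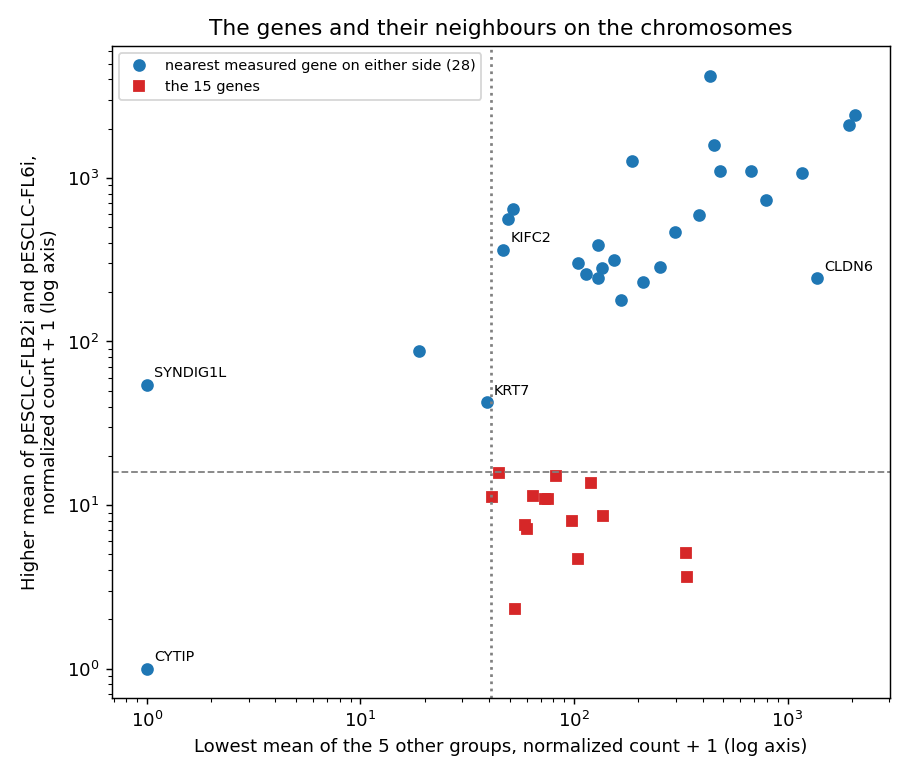
Lowest group mean among the 5 other groups (x) against the higher of the pESCLC-FLB2i and pESCLC-FL6i means (y), as normalized count + 1 on log axes, for the 15 genes (red squares) and the 28 nearest measured genes on either side of the 14 placed ones (blue circles). The lines mark 15 and 40, the limits of the rule, so that a gene in the lower right part is one of the 15 by definition, and CYTIP is the only circle below the dashed line.

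Windows from 250 bases before to 50 after the annotated start were read for the 14 placed genes and for all 19498 protein-coding genes, and 4 motifs, chosen after the values were seen, were searched on both strands. CACCTG, an E-box, was in 5 of the 14 windows (TMEM184A, TJP3, ARHGAP27, PRSS16 and GALNT5) and in 22.5% of all windows. None of the 14 held AATCCACA or AATACACA, bound by FOXH1 (1.51% of all windows), TAATCC, bound by OTX factors (6.08%), or AACCGGTT, bound by GRHL factors (0.108%). The median ratio of observed to expected CpG was 0.437 in the 14 windows and 0.650 in all, and 5 of the 14 reached 0.6, against 54.2% of all windows. TMEM184A and ARHGAP27 held more than 1 E-box, and the 250 bases before their starts (chr3:1044260-1044509, minus strand, and chr12:18036757-18037006, plus strand) are shown with CACCTG, or its reverse complement CAGGTG, in capitals.
TMEM184A: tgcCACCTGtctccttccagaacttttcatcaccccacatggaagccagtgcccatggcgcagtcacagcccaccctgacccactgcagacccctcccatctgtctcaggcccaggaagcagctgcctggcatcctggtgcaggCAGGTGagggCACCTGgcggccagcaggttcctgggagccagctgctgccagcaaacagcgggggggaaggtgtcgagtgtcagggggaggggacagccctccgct
ARHGAP27: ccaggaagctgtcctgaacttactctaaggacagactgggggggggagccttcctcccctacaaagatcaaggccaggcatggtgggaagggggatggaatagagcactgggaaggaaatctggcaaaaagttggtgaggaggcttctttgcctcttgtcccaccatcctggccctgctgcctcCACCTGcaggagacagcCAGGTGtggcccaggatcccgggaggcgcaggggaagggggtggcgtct
The matches are letters in a window and not measured binding sites.

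Gene lists were tested in the inhibitor lines against pESCLC-primary. None of the 15 was on the cytoskeleton and adhesion list or on the TGFB and BMP list, which were set beside them for their like functions. The lists were chosen with earlier results of these data known, and the rule used the same groups. The list counts are therefore a description and no independent support for the 15. Of the 40 genes of a cytoskeleton and adhesion list, 2 rose and 16 fell in pESCLC-FLB2i and 1 rose and 16 fell in pESCLC-FL6i. Over all genes tested 10.8% rose and 8.75% fell in pESCLC-FLB2i, and 8.08% rose and 5.84% fell in pESCLC-FL6i. CDH1, which encodes E-cadherin, fell in both lines, with a log2 fold change of -7.76 ± 0.94 (SE) in pESCLC-FLB2i and -7.97 ± 0.75 in pESCLC-FL6i (limma adjusted p = 0.00788 and 0.0124). EPCAM, an adhesion molecule of the pluripotency list (-7.69 ± 1.03 and -7.60 ± 0.74 (SE)), the tight junction gene OCLN (-7.68 ± 0.28 and -8.32 ± 0.37) and the claudin CLDN3 (-5.89 ± 0.71 and -5.13 ± 0.55) fell in both as well. CLDN4, another claudin, had 4352 and 6356 normalized counts in pESCLC-primary, 45.4 and 2.96 in pESCLC-FLB2i and no read in either pESCLC-FL6i sample. CDH1 kept 125 and 16.8 normalized counts in pESCLC-FLB2i, with 18.9 and 83.8 in pESCLC-FL6i, so its means of 70.7 and 51.4 were above the limit of the rule. TJP1, a paralog of TJP3, had means of 11521 in pESCLC-primary, 4351 in pESCLC-FLB2i and 3042 in pESCLC-FL6i, and of these differences the second was called (-1.95 ± 0.32 (SE)) and the first was not (-1.40 ± 0.17). ITGB8, an integrin subunit, rose in both lines, by 6.88 ± 0.74 and 7.08 ± 0.79 (SE). The median of the list was -2.32 in pESCLC-FLB2i and -2.55 in pESCLC-FL6i, against -0.02 and -0.04 over all genes. Without the first or the second pESCLC-primary sample 3 and 2 genes of the list fell in pESCLC-FLB2i and none in pESCLC-FL6i, and without the second pESCLC-FLB2i or pESCLC-FL6i sample 25 and 27 fell.

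Markers of other cells of the blastocyst fell in the same comparisons. The trophectoderm list summed to 345885 and 402899 normalized counts in pESCLC-primary, 473764 and 488456 in pESCLC-F, 80225 and 94890 in Lv-piPSC-F, 8123 to 14881 in the 4 Epi-piPSC samples and 1442 to 2193 in the 4 inhibitor-line samples, so this sum too was lower in those 4 than in the other 10. Means under 15 were less distinct, with 6 genes of the list in pESCLC-FLB2i, 7 in pESCLC-FL6i, 5 in pESCLC-F and 1 or 2 in each other group. Of its 14 genes tested, 10 fell and 1 rose in pESCLC-FLB2i, and 7 fell and 1 rose in pESCLC-FL6i. Over all genes tested 8.75% fell in pESCLC-FLB2i and 5.84% in pESCLC-FL6i. The keratin KRT8 fell by 10.37 ± 0.83 (SE) and 10.38 ± 0.42 on the log2 scale (limma adjusted p = 0.00389 and 0.00954). CDX2, a defining factor of the trophectoderm, had 388 and 26.2 normalized counts in pESCLC-primary, 785 and 757 in Epi-piPSC-FLB2i, and 1 read in all in the 4 inhibitor-line samples. The 13 measured genes of an endoderm list summed to 123265 and 178751 in pESCLC-primary, 260327 and 310584 in pESCLC-F and 7521 to 10590 in the inhibitor lines, and the last lay within the 3256 to 12807 of the 6 piPSC samples. Of the 12 tested, 8 fell and 1 rose in pESCLC-FLB2i and 6 fell in pESCLC-FL6i. Without the first or the second pESCLC-primary sample, 3 and 2 trophectoderm genes and 2 and 1 endoderm genes fell in pESCLC-FLB2i, and limma called none of either list in pESCLC-FL6i. The part of these cells in the values of the 15 genes was not tested.

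Of 37 TGFB and BMP signaling genes, 4 rose and 8 fell in pESCLC-FLB2i and 3 rose and 7 fell in pESCLC-FL6i. The medians were -0.77 and -0.83. Over all genes tested 10.8% rose and 8.75% fell in pESCLC-FLB2i, and 8.08% rose and 5.84% fell in pESCLC-FL6i. FOXH1 acts in the NODAL part of this list, which also holds BMP genes. Those that fell were NODAL, BMP2, SMAD1 and SMAD6 in both lines. LEFTY2, FST, NOG and SMAD7 fell in pESCLC-FLB2i alone, and BMP4, BMP7 and ID1 in pESCLC-FL6i alone. NODAL, the ligand, had 3856 and 4372 normalized counts in pESCLC-primary, 0 and 2.96 in pESCLC-FLB2i, 2 reads in each pESCLC-FL6i sample, 1.03 and 6.46 normalized counts in Epi-piPSC-FLB2i, but 350.5 and 604 in Epi-piPSC-FL6i. It fell in both lines, with log2 fold changes of -11.01 ± 0.74 (SE) and -9.87 ± 0.53 (limma adjusted p = 0.00327 and 0.00962), with 3 and 4 reads in all, so that these values depend on the pseudocount. NODAL was not 1 of the 15 because Epi-piPSC-FLB2i was low as well. The NODAL antagonist LEFTY2 fell by 7.90 ± 0.52 (SE) in pESCLC-FLB2i, and with 0 and 86.5 normalized counts it was not called in pESCLC-FL6i (limma adjusted p = 0.0855). SMAD2 (-1.15 and -0.98), SMAD3 (-0.21 and -0.55) and SMAD4 (-0.05 and 0.12), which act with FOXH1, were not called in either line. Leaving out 1 sample moved the number that fell to between 3 and 13 in pESCLC-FLB2i and between 0 and 14 in pESCLC-FL6i, and the number that rose to between 0 and 8 and between 0 and 9. The lowest counts were without a pESCLC-primary sample, and DESeq2 with all samples had 6 rise and 11 fall in pESCLC-FL6i.

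OTX2 was on the ectoderm and neural list, the only one of the 15 on any of the 21 lists. Of the other genes of that list, 9 of 14 tested rose in pESCLC-FLB2i and 8 of 15 in pESCLC-FL6i, and none fell, with medians of 4.51 and 5.60. Over all genes tested 10.8% rose in pESCLC-FLB2i and 8.08% in pESCLC-FL6i. ZIC1, a zinc finger factor of the neural plate, rose by 10.84 ± 0.93 (SE) and 10.01 ± 0.99 on the log2 scale, and PAX6, a factor of neural progenitors, by 7.22 ± 1.08 and 8.64 ± 1.13 (limma adjusted p = 0.0125 and 0.0192). PAX6 had 639 and 205 normalized counts in pESCLC-FLB2i, with 1666 and 561 in pESCLC-FL6i, against 4.92 and 0 in pESCLC-primary. OTX2 thus stood at 0 to 1 read in the samples in which 8 or 9 other genes of its list were higher than in pESCLC-primary. Without the second pESCLC-primary sample 4 of the list rose in pESCLC-FLB2i, and without the first or the second none rose in pESCLC-FL6i, where 5 rose and 1 fell without the first pESCLC-FL6i sample.

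**Figure D5:**
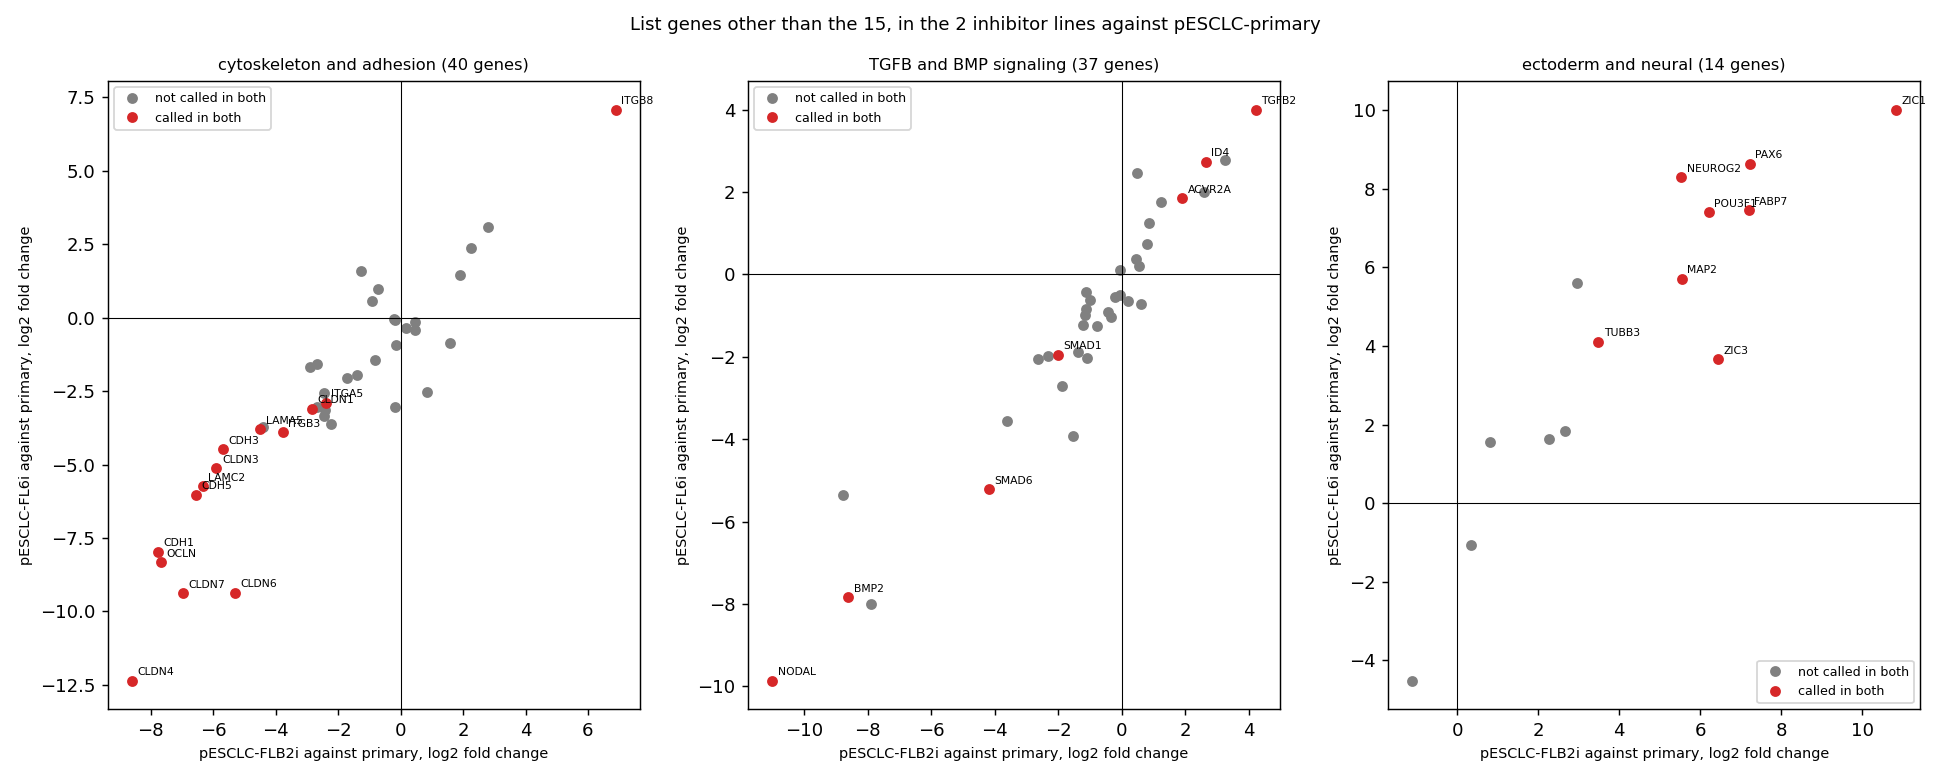
Log2 fold change against pESCLC-primary in pESCLC-FLB2i (x) and pESCLC-FL6i (y) for the genes of 3 lists, without the 15 genes, with 1 point per gene tested in both and those called in both in red and named. CLDN4, OCLN, CLDN7 and CDH1 lie far in the lower left of the cytoskeleton and adhesion panel, NODAL in that of the TGFB and BMP panel, and ZIC1 and PAX6 in the upper right of the ectoderm and neural panel.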

How the data were processed

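RNA was sequenced by the authors from 14 samples in 7 groups of 2, with a stranded mRNA kit and 50 bp paired-end reads, aligned to Sscrofa11.1 with TopHat 2.1.0 and counted on genes with HTSeq at default parameters. The release of the annotation is not given in the sources used here. The deposited signal values are counts that the authors divided by a DESeq2 size factor per sample. All values (100%) were whole multiples of 1 read per sample, within 1.8e-09 reads, and the reads were recovered so. Members and gene lists were chosen with earlier results of these data known. Groups were compared in pairs with limma 3.58.1 (trend) on log2(normalized count + 1), over genes that reached 10 normalized counts in 2 or more of the 4 samples. Limma was taken as the main test because the deposited values are normalized, although the reads could be recovered. DESeq2 1.42.0, the test of the study, and edgeR 4.0.16 were run on the recovered reads as alternatives, with other pseudocounts, filters, fold limits and scalings, a replicate block and each sample left out. The tests were tried on simulated data. The comparisons of list genes with pESCLC-primary were added after seeing the data. Named genes were all 15, the genes next to the limits and list genes. Symbols came from a table of gene names, and positions and sequences from RefSeq (Sscrofa11.1) by symbol. Genes without a matching symbol, POU5F1 and SOX2 among them, were not used here. Intervals and limits on counts of 0 cover counting error only.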

Additional observations from a re-analysis of the deposited data

How the results depend on the processing

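With the fold limit raised to a log2 fold change of 3, the number of the 15 genes called was 0 in pESCLC-F against pESCLC-primary, 1 in Epi-piPSC-FL6i against Epi-piPSC-FLB2i, 2 in Lv-piPSC-F against pESCLC-F, and 6 and 2 in Epi-piPSC-FLB2i and Epi-piPSC-FL6i against pESCLC-primary. In pESCLC-F against pESCLC-primary, 1 fit on all 14 samples called 0, with 3 of the 15 under an unadjusted p of 0.05, and DESeq2 called 2. Leaving out 1 sample gave 0 to 2, 4 to 6, 0 to 9, 9 to 12 and 7 to 8 in the 5 comparisons, in the order above. Pseudocounts of 0.1 and 5, no minimum, a minimum of 50 and TMM factors kept each of these counts, and edgeR kept all but that of Epi-piPSC-FL6i against pESCLC-primary, with 8 in place of 9. Of the 31 calls, 282 of 310 values under other settings and 100 of 124 with a sample left out kept the call, and none turned its direction. In pESCLC-F against pESCLC-primary, DESeq2 called 494 genes in all and limma 284. The rule took 26 genes with limits of 20 and 30, 8 with each sample on its own side, 10 with limits of 10 and 40 or of 15 and 60, 14 with TMM factors, and 14 to 24 with a sample left out, 24 being without the second pESCLC-FL6i sample. The causes were not tested.

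The replicate numbers are only numbers in the labels. Same-numbered samples deviated from their group means with correlations of -0.0696 to 0.0132, and none was over 0.1. With the replicate block, 1, 4, 8, 10 and 9 of the 15 genes were called in the 5 comparisons, against 1, 4, 7, 10 and 9 without it, and no pairing was assumed. The depth of the second pESCLC-FL6i sample, where 1 read is 2.62 normalized counts, limits what can be told of levels under 15.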
